A study of Capra hircus with 3 samples.

Results

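The cells described here were cycling cells of goat hair follicles at day 120 of gestation (E120) that carried little mRNA of decorin (DCN). They were chosen by their values: a UMI (a unique molecular identifier, which marks 1 captured mRNA molecule) of at least 4 of the 7 cycle genes CENPW, UHRF1, TOP2A, CENPF, NUSAP1, MCM5 and CDK1, DCN below 8 counts per 10000 of the cell, a sum below 200 counts per 10000 over the 5 inner root sheath keratins KRT25, KRT27, KRT28, KRT71 and KRT73, and no UMI of COL1A1. The rule kept 1356 of 6896 cells of the E120 library, a share of 19.7% (exact binomial interval 18.7 to 20.6%), among 20676 cells in all. The study profiled back skin of goat fetuses of the Northern Shaanxi White Cashmere breed by single-cell RNA sequencing of mRNA 3′ ends in droplets, with 1 library at each of E60, E90 and E120 and cells of at least 2 fetuses pooled before barcoding. At E120 the follicles were pulled with forceps from skin pieces treated with collagenase IV and were then dissociated with TrypLE, whereas the earlier stages were whole skin. Cells of 1 library are not replicates, so the spread between fetuses is unknown and no difference below was tested. Intervals are 95% intervals for counting error only, and no p-value is given.

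The hair matrix is the pool of fast-dividing keratinocytes that sits around the dermal papilla at the base of the follicle. Its cells divide a limited number of times, then leave the cycle and differentiate into the hair shaft or into the inner root sheath, the tube that guides the shaft upwards. A dividing cell first makes nucleotides, histones and the helicase and polymerase complexes that copy its DNA, and later the kinesins, kinetochore proteins and condensins that pack and separate the chromosomes. Messages of these machines are made in waves, the replication genes around S phase and the mitotic genes in G2 and M phase.

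The cycling DCN-low cells were set against 4 other groups of E120 cells. The comparison named by the rule was the 2210 cells with no UMI of any of the 7 cycle genes, called cycle-negative here, a word that describes detection and not the state of the cell. Of these, 1787 also met the DCN, keratin and COL1A1 limits and are called limit-matched. The most similar cells were 462 cycling cells that met every limit except that of DCN (cycling DCN-high cells). As a reading of free RNA, 161 cycle-negative cells with a UMI of at least 3 of 7 endothelial markers were used, a choice made after values had been seen.

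Depth differed between these groups. The median was 15630.5 UMIs per cycling DCN-low cell (range 2475 to 46628), 8377 per cycle-negative cell, 9134 per limit-matched cell, 14027 per cycling DCN-high cell and 6256 per endothelial cell. Summed counts were scaled to counts per 1000000 UMIs of the group (CPM), from totals of 22058793, 25195706, 20310929 and 6603174 UMIs in the first 4 groups. The median number of detected genes was 2682 in the cycling DCN-low cells and 1845 in the cycle-negative cells, and after each cell had been thinned to 2000 UMIs it was 767 and 677. The median mitochondrial share was 5.34% and 4.94%. The E120 library shared 10 cell barcodes with E60 and 13 with E90. A doublet caller marked 13 of the 1356 cells, or 0.959%, but it called only 17.7% of simulated doublets, and no cell was removed.

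Markers of other cell types were scarce among the cycling DCN-low cells. Of the 1356 cells, 59 (4.35%) had a UMI of at least 3 markers of another type, against 255 of 1787 (14.3%) of the limit-matched cells. Endothelial markers accounted for 28 of them (2.06%), mast cell markers for 21 (1.55%), mural markers for 7, dermal markers for 3 and myeloid markers for 1, while no cell reached 3 melanocyte or Schwann cell markers. No UMI was found for PDGFRA, TWIST2, CLDN5, RGS5, CSF1R, MLANA, TYRP1, TYR, S100B or CDH19. The endothelial list summed to 28.2 CPM in the cycling DCN-low cells, 170.0 CPM in the limit-matched cells and 15.1 CPM in the cycling DCN-high cells. The part of these cells in the differences below was not tested beyond leaving out every cell with 3 such markers.

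The matrix label was met in part. MSX1, a homeobox gene of matrix keratinocytes, stood at 405 CPM in the cycling DCN-low cells and 78.2 CPM in the endothelial cells. HOXC13, a homeobox regulator of shaft keratins, stood at 284 and 57.3 CPM, and MYCN, a growth-promoting transcription factor, at 126 and 24.3 CPM. LEF1, the DNA-binding partner of beta-catenin in Wnt signalling, was at 163 CPM against 129 CPM. At 2000 UMIs per cell 25.1% of the cycling DCN-low cells and 23.6% of the endothelial cells had a UMI of it, which is close. Without thinning the shares were 73.1% and 53.4%. Free RNA per droplet need not scale with depth, which differed, so this reading cannot settle how much LEF1 was free RNA. BMP4, a ligand of the bone morphogenetic protein family, was at 53.3 CPM against 11.3 CPM. SHH, the hedgehog ligand of the matrix, was at 7.16 CPM, FOXN1 at 0.771 CPM and WNT10B at 0.0907 CPM, and MSX2 and DLX3 were not found under these symbols. The keratinocyte adhesion genes DSP and EPCAM were at 336 and 45.2 CPM, against 87.7 and 3.47 CPM in endothelial cells. In the cycling DCN-high cells MSX1, MYCN, LEF1 and HOXC13 stood at 407, 156, 260 and 238 CPM. The hair matrix list summed to 1039 CPM in the cycling DCN-low and 1421 CPM in the cycling DCN-high cells, the latter with 252 CPM of SHH. These 4 matrix genes were thus not particular to the DCN-low cells.

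The 7 cycle genes of the rule were detected unevenly, as a description of what chose the cells. CENPW, a centromere protein, had a UMI in 95.6% of the cells, UHRF1, which couples DNA methylation to replication, in 93.1%, TOP2A, which untangles DNA, in 90.9%, and CENPF, a kinetochore protein, in 87.5%. The helicase subunit MCM5 was found in 78.8%, the spindle protein NUSAP1 in 54.9% and the mitotic kinase CDK1 in 33.8%. The cells had 4, 5, 6 and 7 of the genes in 366, 378, 390 and 222 cases, and among the 745 cells with NUSAP1, 552 (74.1%) also had MCM5.

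Of the other limits, that on DCN left out the most cycling cells. Of 1869 E120 cells with at least 4 of the genes (27.1% of the library), 469 (25.1%) were at or above the DCN limit, 12 at or above the keratin limit and 39 had COL1A1. DCN was 0 in 682 of the 1356 cells, the highest value inside was 7.996 counts per 10000 and the lowest outside 8.006, and 144 cells lay from 4 to 8 and 162 from 8 to 16, so the DCN limit crossed a continuous range. The highest keratin sum inside was 195.8 and the lowest outside 220.9. On the cycle side, 320 cells within the other limits had 3 of the 7 genes.

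**Figure D1:**
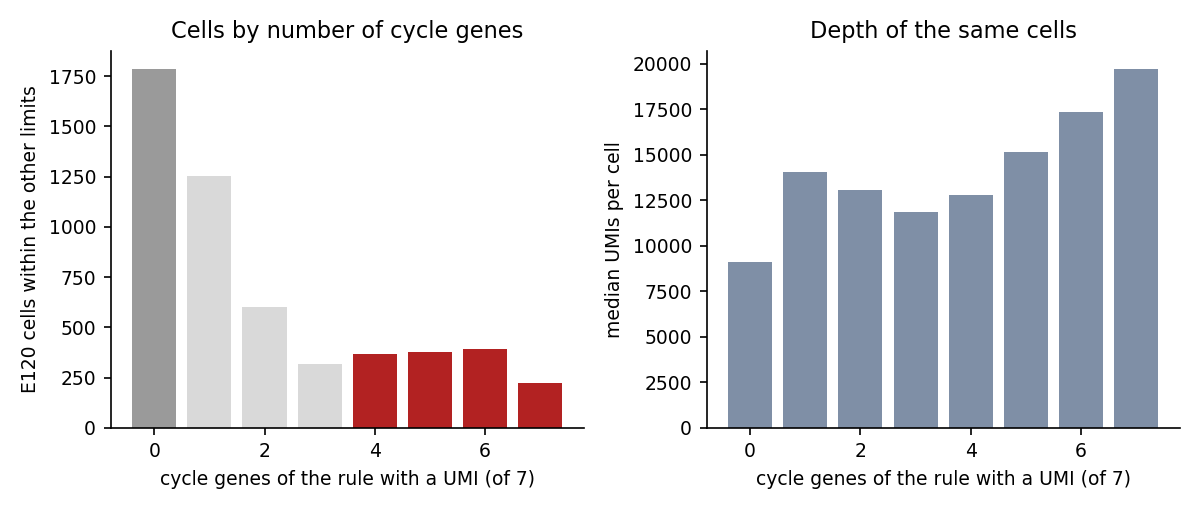
Number of E120 cells within the DCN, keratin and COL1A1 limits (left) and their median UMIs per cell (right) against the number of cycle genes with a UMI, with the cycling DCN-low cells in red and the limit-matched cells in dark grey. Cells with 4 to 6 genes numbered 366 to 390, more than the 320 cells with 3. The median depth was 9134 UMIs at 0 genes, 14042 at 1, 11839 at 3 and 19729 at 7.

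DNA replication genes were higher in the cycling DCN-low cells across the whole list. The cells were chosen by MCM5 and UHRF1 among others, so a higher level of this list was partly set by the rule. Of 36 listed genes outside the rule, 36 were higher than in the cycle-negative cells at any size, with a median log2 ratio of 2.30, while over all 3558 genes at a mean of at least 20 CPM the median was 0.21 and 65.8% were higher. A 2-fold difference of CPM + 1 was passed upwards by 10.7% and downwards by 6.55% of those 3558 genes, and against the limit-matched cells by 11.7% and 6.51% of 3551 genes. In the first comparison these were 382 genes higher and 233 lower, and 339 and 331 when each cell was thinned to 2000 UMIs or 338 and 330 when each cell weighed the same, so the balance of directions over all genes depended on how cells were weighted. Past that level filter, 13 of 13 replication genes were at least 2-fold higher in both comparisons, and the 4 that reached 20 CPM in the cycle-negative cells alone were among them. The list summed to 1586 CPM (1570 to 1603) in the cycling DCN-low cells, 260.5 CPM (254 to 267) in the cycle-negative cells and 249.9 CPM (243 to 257) in the limit-matched cells.

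MCM7, another subunit of the replicative helicase, was at 295 CPM (288 to 303) against 34.0 CPM (31.7 to 36.3) in the cycle-negative cells and 33.3 CPM in the limit-matched cells. RFC4 and RFC1, parts of the loader of the sliding clamp, were at 185 and 135 CPM against 28.2 and 65.0 CPM. The ligase LIG1, which joins Okazaki fragments, was at 132 CPM against 11.5 CPM. Of these genes RFC1 differed least.

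Of 15 listed nucleotide synthesis genes, 4 of 8 past the filter were at least 2-fold higher than in the cycle-negative cells and none lower. The list median was 0.70. Over all genes 10.7% were higher and 6.55% lower. All 4 nucleotide genes passed the filter through the cycling DCN-low cells. Of the 3 listed genes that reached 20 CPM in the cycle-negative cells alone none was 2-fold higher. RRM1, the large subunit of ribonucleotide reductase, was at 166 CPM (161 to 172) against 17.3 CPM (15.7 to 19.0), and the thymidylate kinase DTYMK at 88.0 CPM against 12.8 CPM. CAD and IMPDH2, which start pyrimidine and guanine nucleotide synthesis, stood at 225 and 211 CPM against 158 and 139 CPM, and NME1, a nucleoside diphosphate kinase, at 238 against 237 CPM. DCK, a deoxynucleoside kinase, and MTHFD1, a folate enzyme, were the remaining genes past 2-fold, at 40.1 and 42.7 CPM against 5.91 and 12.3 CPM.

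The genes of chromosome segregation and mitosis had the largest median ratio of the lists. The rule chose the cells by genes of the same kind, such as CENPF, NUSAP1 and CDK1, so this place was partly set by that choice. All 56 listed genes in the table outside the rule were higher than in the cycle-negative cells, with a median log2 ratio of 4.42. Past the filter 40 of 40 were at least 2-fold higher, as were the 5 that reached it in the cycle-negative cells alone. Over all genes 10.7% were at least 2-fold higher. The mitosis list summed to 8981 CPM (8941 to 9020) against 1226 CPM (1212 to 1240), and 1234 CPM in the limit-matched cells. TUBA1B, an alpha-tubulin, was at 3957 CPM against 789.9 CPM and TUBB4B at 483 against 220.2 CPM. The condensin subunits SMC2 and SMC4 were at 315 and 267 CPM against 11.03 and 33.6 CPM.

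Mitotic genes also led the ranking over genes that have a symbol and no part in the rule. The cycle genes of the rule, which the cycle-negative cells lack by choice, were left out of it. KIF11, the kinesin that pushes spindle poles apart, was at 109 CPM (104 to 113) against 0.913 CPM (0.579 to 1.37) in the cycle-negative cells. That was the top ratio among such genes of at least 100 CPM. HMMR, a spindle-associated protein, followed at 119 against 1.35 CPM, the kinetochore motor CENPE at 185 against 2.70 CPM and CDCA8, part of the chromosomal passenger complex, at 107 against 1.67 CPM. The centrosomal kinase NEK2 was at 148 against 2.90 CPM, the kinetochore gene NUF2 at 108 against 1.95 CPM, and CDCA2 at 107 against 2.30 CPM. The condensin subunit NCAPG was at 148 against 4.01 CPM, and the spindle assembly factor TPX2 at 245 against 10.6 CPM. The kinesins KIF20B and KIF22 and the spindle protein CKAP2 were among them, at 259.8, 121 and 165 CPM against 11.3, 5.0 and 8.1 CPM. SMC2 and the linker histone HIST1H1B, at 171 against 7.30 CPM, were also among the 15 genes with the largest ratio. The same 15 genes ranked highest against the limit-matched cells.

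Of 20 listed histone and chromatin genes, 15 of 16 past the filter were at least 2-fold higher than in the cycle-negative cells. The list median was 1.97. Against the limit-matched cells 14 of 16 were higher. Of the 11 that reached 20 CPM in the cycle-negative cells alone 10 were higher. Over all genes 10.7% were higher against the cycle-negative and 11.7% against the limit-matched cells. H2AFZ, the variant histone H2A.Z, was at 2997 CPM (2974 to 3020) against 324 CPM (317 to 331), and at 2000 UMIs per cell it was found in 98.6% of the cycling DCN-low cells and 50.6% of the limit-matched cells. Its relative H2AFV was at 1461 against 390.3 CPM, the chromatin protein DEK at 1106 against 264 CPM, and the histone chaperone NASP at 363 against 49.4 CPM. Canonical histone messages mostly lack the poly(A) tail on which 3′ capture depends, so the level of HIST1H1B cannot be read as the level of histone messages as a whole.

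Of 20 listed DNA repair genes, 20 were higher at any size and 8 of 10 past the filter were at least 2-fold higher, with a list median of 2.28. Of the 5 that reached 20 CPM in the cycle-negative cells alone, 4 were at least 2-fold higher. Over all genes 65.8% were higher at any size and 10.7% at least 2-fold. The repair sensor PARP1 was at 192 against 80.0 CPM, the cohesin subunit RAD21 at 184 against 52.0 CPM, the deubiquitinase USP1 at 148 against 26.8 CPM and the chromatin ATPase ATAD2 at 122 against 12.5 CPM. BRCA2, which loads the recombinase in homologous repair, was at 70.7 against 10.8 CPM.

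**Figure D2:**
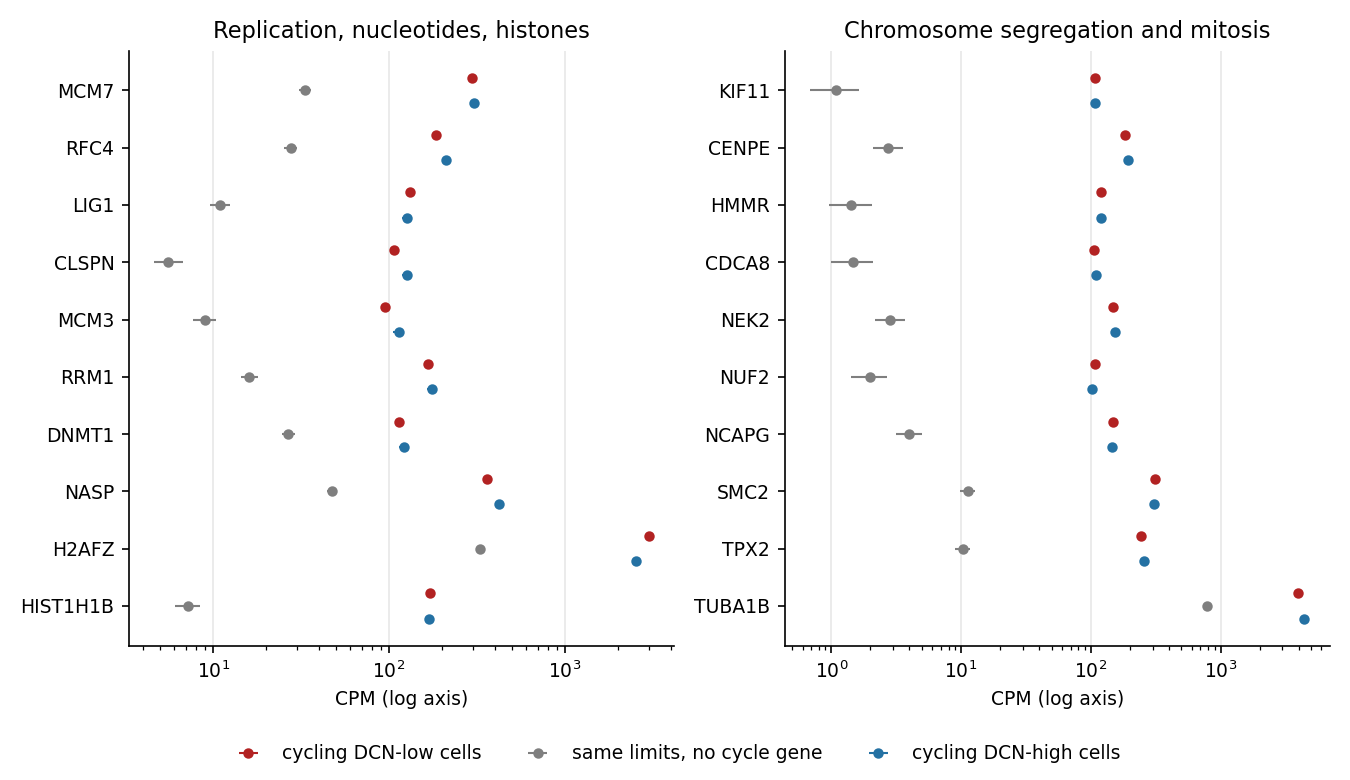
CPM (log axes) of 10 replication, nucleotide and chromatin genes (left) and 10 mitotic genes (right) in cycling DCN-low cells (red), limit-matched cells without a cycle gene (grey) and cycling DCN-high cells (blue), with exact 95% Poisson intervals as bars. In all 20 genes the red point lay to the right of the grey one and near the blue one, as for KIF11 at 109 CPM against 1.08 CPM in the limit-matched cells.

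Of 36 listed regulators of the cycle, 30 were higher than in the cycle-negative cells at any size, with a list median of 1.14. Past the filter, 3 of 13 were at least 2-fold higher and 2 were lower. Of the 11 that reached 20 CPM in the cycle-negative cells alone 1 was higher, since E2F2 and E2F8 passed through the cycling DCN-low cells. Over all genes 10.7% were higher and 6.55% lower, so 1 of 11 is near that share. The 3 higher regulators were MYCN at 126 against 47.6 CPM and the E2F family members E2F2 and E2F8 at 41.6 and 42.0 CPM against 6.19 and 0.913 CPM. CCND1, cyclin D1, which acts in G1, was at 625 CPM against 548 CPM, and BTG1, an antiproliferative gene, at 143 against 119 CPM. The inhibitors diverged: CDKN1A, which encodes p21, was at 60.7 CPM (57.5 to 64.0) against 242 CPM (236 to 248), while CDKN1B, which encodes p27, was at 115 CPM (111 to 120) against 61.3 CPM (58.3 to 64.5). CDKN1A was named after its values had been seen. The other regulator that was 2-fold lower, CDKN1C, was at 18.41 against 42.3 CPM.

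The ranked genes had a symbol, no part in the rule and at least 100 CPM in the higher group. The 10 with the smallest ratio included keratins and cornified envelope genes. KRT14, the keratin of basal and outer root sheath cells, was at 62.6 CPM (59.3 to 66.0) against 1235 CPM (1222 to 1249) in the cycle-negative cells and 1469 CPM in the limit-matched cells. KRT17, another sheath keratin, was at 102 against 1154 CPM. The cornified envelope genes CNFN and SBSN were at 4.94 and 47.9 CPM against 113 and 724 CPM, and the protease inhibitor SPINK5 at 16.4 against 195 CPM. GPRC5D, a receptor of hard-keratin-forming cells, was at 73.3 against 781 CPM. SPP1, CST6, KRT1 and FABP9 were also among the 10 with the smallest ratio, at 2.58, 68.3, 5.80 and 97.0 CPM against 135, 1132, 103 and 1174 CPM. For these 4 genes 5 cells held 54.3%, 71.4%, 54.1% and 30.7% of the UMIs of the cycle-negative group. For KRT14, CNFN and GPRC5D the top 5 cells held 19.7%, 23.6% and 22.2%. A UMI of CNFN was found in 9.59% and of GPRC5D in 34.4% of the cycle-negative cells. Against the limit-matched cells SPP1, CNFN, KRT14, CST6, KRT17 and GPRC5D were again among the 10, joined by KRT23 (12.01 against 154 CPM), SERPINB13 (7.93 against 104 CPM), CA2 (26.2 against 311 CPM) and KLK7 (1.5 against 103 CPM, 65.4% of it in 5 cells).

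By lists against the cycle-negative cells, 5 of 6 outer root sheath or basal genes past the filter were at least 2-fold lower. Of the epithelial genes past it 5 of 7 were, and in neither list was any higher. Over all genes 6.55% were lower and 10.7% higher. A gene can pass the filter through the cycle-negative cells alone, as SOX9 and BARX2 below did, so these counts lean towards lower genes. The dermal list, whose marker COL1A1 the rule used, was lower in 5 of 5 past the filter and summed to 107 against 625 CPM. The outer root sheath or basal list of 9 genes summed to 283 CPM against 1601 CPM. SOX9, a stem and sheath factor, was at 4.31 against 71.4 CPM and BARX2 at 3.4 against 38.2 CPM, whereas LHX2, a progenitor factor on the same list, was at 142 against 96.0 CPM. Hair shaft genes were lower in 5 of 5 past the filter, and in 4 of 5 against the limit-matched cells, where 6.51% of all genes were lower. KRT35, a keratin of the early shaft, was at 3096 CPM against 8187 CPM and 9952 CPM in these 2 groups, and KRT85 at 1529 against 9908 and 12104 CPM.

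Endothelial cells, which should lack keratins, carried UMIs of them as well, at 1478 CPM of KRT85, 711 CPM of KRT35, 628 CPM of KRT71 and 25.2 CPM of KRT14. The cycling DCN-low cells had 1529, 3096, 889 and 62.6 CPM of these genes, near the endothelial level for KRT85 and above it for KRT35 and KRT14. At 2000 UMIs per cell KRT85 was found in 51.6% of the cycling DCN-low cells and 58.4% of the endothelial cells, and KRT71 in 42.8% and 49.7%. In the cycling DCN-high cells these shares were 40.7% for KRT85 and 27.9% for KRT71. KRT35 was found in 63.5% and 55.3%. Without thinning, 97.1% of the cycling DCN-low and 90.7% of the endothelial cells had a UMI of KRT35, and 95.8% and 90.1% had one of KRT85. The endothelial cells were shallower, so neither CPM nor thinned shares settle how much keratin of a cycling cell was free RNA.

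Transcription factors of the follicle differed in both directions. Of 36 listed genes, 5 of 18 past the filter were at least 2-fold higher than in the cycle-negative cells and 3 were lower, with a list median of -0.06. Over all genes 10.7% were higher and 6.55% lower. Of the 17 listed genes that reached 20 CPM in the cycle-negative cells alone, 4 were higher and 3 lower. MSX1 was at 405 CPM (397 to 413) against 156 CPM (151 to 161), and at 2000 UMIs it was found in 46.6% of the cells, against 24.6% of the limit-matched and 13.0% of the endothelial cells. CUX1, a homeobox gene, was at 431 against 206 CPM, SOX4 at 226 against 106 CPM, DLX2 at 109.98 against 36.4 CPM and TFAP2B at 53.2 against 18.9 CPM. The lower genes were SOX9, BARX2 and PRDM1, the last at 32.0 against 75.1 CPM. HOXC13 stood at 284 CPM against 399 CPM. GATA3, a factor of inner root sheath differentiation, was at 281 CPM (274 to 288) against 148 CPM in the cycle-negative and 61.2 CPM (57.8 to 64.7) in the limit-matched cells, which are the cycle-negative cells without those above the limits.

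Of 49 listed signalling genes, none of the 22 past the filter was 2-fold higher than in the cycle-negative cells and 1 was lower, beside 10.7% higher and 6.55% lower over all genes, with a list median of 0.05. That gene was BAMBI, a decoy receptor that dampens bone morphogenetic protein and related signals, at 281 CPM (274 to 288) against 872 CPM (860.05 to 883). ID3 and ID1, targets of bone morphogenetic protein signalling, were at 2560.4 and 2296 CPM against 1289 and 1391 CPM. The Notch target HES1 was at 359 against 257 CPM, but endothelial cells had 1001 CPM, and the Notch ligand JAG1 was at 339.9 against 295 CPM. Against the limit-matched cells 3 of 22 genes were 2-fold higher, beside 11.7% over all genes. They were ID3, at 1047 CPM in the limit-matched cells, the hedgehog receptor PTCH1 at 72.5 against 33.4 CPM and the Wnt receptor FZD10 at 60.7 against 27.1 CPM.

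Of the glycolysis and dissociation lists 1 gene each passed 2-fold, beside 10.7% higher and 6.55% lower over all genes. Of 9 glycolysis genes, 1 of 5 past the filter was lower, HK1 at 13.1 against 34.7 CPM, and PKM was at 443 against 331 CPM. Of 11 genes that respond to dissociation, 1 of 9 was 2-fold higher, the chaperone HSP90AA1 at 7308 against 3331 CPM, while the immediate early genes FOS and JUN were at 2391 and 1808 CPM against 2346 and 1376 CPM and DUSP1 at 746 against 504 CPM.

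Between the cycle-negative and the cycling cells lay 1253, 601 and 320 cells with 1, 2 and 3 cycle genes within the same limits, and the levels formed a series with the number of genes. From 0 to 7 genes KRT14 stood at 1469, 680, 338, 182, 109, 63.1, 42.4 and 44.7 CPM. In the class with 0 genes 35.4% of cells had a UMI of KRT14, and 5 cells held 20.6% of its UMIs. CDKN1A stood at 268, 203, 182, 75.9, 66.6, 56.5, 57.4 and 65.2 CPM. GPRC5D was at 960.1, 1082 and 812 CPM up to 2 genes and at 50.2 CPM at 3. KRT14 was lower in each class up to 6 genes, whereas CDKN1A and GPRC5D had their main step between 2 and 3 genes.

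GATA3 was at 61.2, 67.9, 111, 214, 261, 263, 270.4 and 340.0 CPM from 0 to 7 genes, and MSX1 at 172 CPM at 0, 312 CPM at 3 and 421 CPM at 7. In all cycle-negative cells, before the limits, GATA3 was at 148 CPM, whereas the keratin limit left out only 12 of 1869 cycling cells. What part of the climb came from the limits was not tested. CDKN1B was at 61.9 CPM at 0, 76.9 CPM at 4 and 133 CPM at 7. HOXC13 went from 473 CPM at 0 to 269 CPM at 4 and 278 CPM at 7, and LEF1 from 204 to 158 and 162 CPM. Deeper cells can show more cycle genes, but the median depth did not rise at each step. It was 9134, 14042, 13068, 11839, 12777.5, 15152.5, 17374 and 19729 UMIs from 0 to 7 genes. With each cell thinned to 2000 UMIs, GATA3 was at 68.8 CPM at 0 and 354 CPM at 7, CDKN1A at 250.4 and 76.6 CPM, and MSX1 at 166 and 419 CPM.

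**Figure D3:**
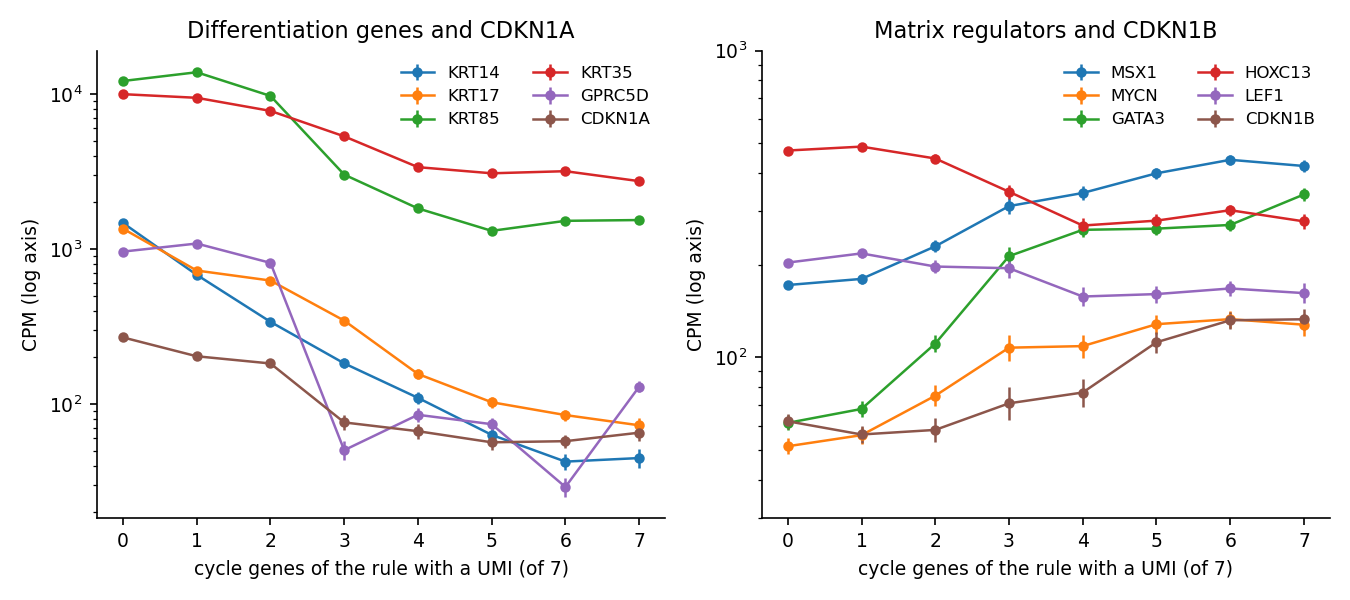
CPM (log axes) of differentiation genes and CDKN1A (left) and of matrix regulators and CDKN1B (right) in E120 cells within the DCN, keratin and COL1A1 limits, by the number of cycle genes with a UMI, with exact 95% Poisson intervals. KRT14 was at 1469 CPM with 0 genes and 44.7 CPM with 7, and GATA3 at 61.2 and 340.0 CPM. Without the limits GATA3 was at 148 CPM with 0 genes.

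The cycling DCN-high cells had 14027 UMIs at the median, close to the 15630.5 of the cycling DCN-low cells. Of the 18 replication, 47 mitosis, 16 histone, 14 repair and 9 nucleotide genes past the filter, none differed 2-fold in either direction, and the list medians lay between -0.17 and -0.04. Of the mitosis, replication and repair genes, 18 of 56, 10 of 36 and 5 of 20 were higher in the DCN-low cells at any size, while 54.1% of all tested genes were. Over all 3675 genes tested, 1.61% were at least 2-fold higher in the cycling DCN-low cells and 1.63% lower, with a median log2 ratio of 0.03, so a count of 0 is near those shares. Replication genes summed to 1586 CPM in the DCN-low and 1698 CPM in the DCN-high cells, and mitosis genes to 8981 and 9601 CPM. DCN itself, which set the groups apart, was at 118 and 2801 CPM.

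Genes with a symbol, no part in the rule and at least 100 CPM in the higher group were ranked. Of these, SHH had the smallest ratio between the cycling DCN-low and DCN-high cells. It was at 7.16 CPM (6.09 to 8.37) against 252 CPM (239.9 to 264) in the DCN-high cells, 31.0-fold lower. At 2000 UMIs it was found in 1.55% of the DCN-low cells, 23.4% of the DCN-high cells and 0 of 161 endothelial cells, which allows a share of up to 2.27%. WIF1, a secreted Wnt inhibitor, was at 16.05 CPM (14.4 to 17.8) against 222 CPM (211 to 234), with 16.5 CPM in endothelial cells. PDGFA, a growth factor that signals to the dermis, was at 62.4 against 221 CPM, and the Notch ligand JAG2 at 69.0 against 209 CPM. Of 24 listed signalling genes past the filter, 6 were at least 2-fold lower, 1 was higher and 17 were between. Over all genes 1.63% were lower and 1.61% higher. The signalling list summed to 7010 CPM against 7513 CPM. The 6 were SHH, PDGFA, JAG2, WNT10A (30.7 against 74.7 CPM), BMP2 (14.2 against 38.5 CPM) and BMP4 (53.3 against 108 CPM), and WIF1 was not on the list. The higher gene was HES1, at 359 against 161 CPM. Of 15 cycle regulators none was lower and 2 were higher, CDKN1A at 60.7 against 17.0 CPM and MYC at 84.1 against 29.2 CPM, beside the same shares over all genes. CDKN1A passed the filter through the DCN-low cells, and SHH and BMP2 through the DCN-high cells. KITLG, the ligand that melanocytes need, was at 235 against 409 CPM.

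Other genes low in the DCN-low cells were the collagen chaperone SERPINH1 at 181 against 535 CPM, IGFBP7 at 44.9 against 129 CPM, the metallothionein MT3 at 147 against 398 CPM, CCN1 at 115 against 298 CPM, and the retinoic acid binding protein CRABP1 at 99.3 against 239.7 CPM. The chemokine CCL20, at 21.8 against 167 CPM, had 55.6% of the UMIs of the DCN-high group in 5 cells. In endothelial cells SERPINH1, IGFBP7 and CCN1 were at 1823, 1412 and 294 CPM.

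The rule gene KRT25 was 6.42-fold higher in the DCN-low than in the DCN-high cells. Of the ranked genes, which exclude those of the rule, GATA3 had the largest ratio. It was at 281 CPM (274 to 288) in the DCN-low against 54.7 CPM (49.2 to 60.6) in the DCN-high cells, 5.06-fold higher, and was found in 29.1% and 9.52% of cells at 2000 UMIs, with 3.11% of endothelial cells. The desmosomal cadherin DSG1 was at 174 against 35.4 CPM, METRNL at 169 against 32.9 CPM, SELENBP1 at 188 against 38.8 CPM, and RHOV, a small GTPase, at 338 against 96.5 CPM. DAPL1, a gene of early epithelial differentiation, was at 406 against 110.3 CPM. KRT35 and KRT85 were at 3096 and 1529 CPM against 818 and 350.3 CPM, although KRT85 was under 2-fold, at a log2 ratio of 0.84, when the DCN limit was set at 4, and the sheath keratins KRT25 and KRT71, which belong to the rule, at 584 and 889 CPM against 90.1 and 197 CPM. LGALS3, HSPB8, FABP3.1, CALD1 and CSRP2 were 2.45-fold to 3.27-fold higher, of which LGALS3, HSPB8 and FABP3.1 were under 2-fold with a DCN limit of 4. VIM and TM4SF1 were at 278 and 174 CPM against 91.9 and 41.9 CPM, and both are abundant in endothelial cells, at 13705 and 1502 CPM. Without the cells that carried 3 markers of another type the log2 ratio of VIM was 0.02.

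**Figure D4:**
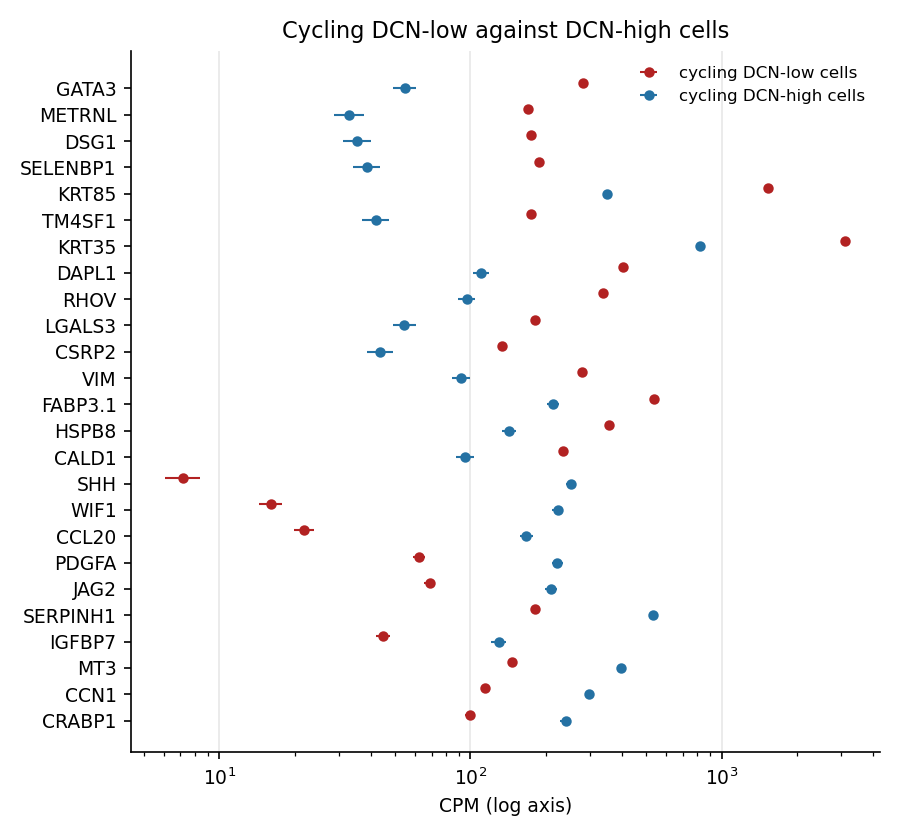
CPM (log axis) of the 15 highest-ranked and 10 lowest-ranked genes by the ratio between cycling DCN-low (red) and cycling DCN-high (blue) cells, with exact 95% Poisson intervals. Genes of the rule and genes without a symbol were not ranked. GATA3 headed the first set at 281 against 54.7 CPM and SHH the second at 7.16 against 252 CPM.

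Classes of DCN within the cycling cells placed these differences along the DCN range. This split was made after values had been seen. From no DCN, through above 0 to 4 and 4 to 8 counts per 10000 inside the limit, to 8 to 16 and 16 or more outside it, the classes held 682, 530, 144, 162 and 300 cells. SHH stood at 4.40, 6.74, 21.5, 31.2 and 381 CPM, so most of it was in the highest class. PDGFA stood at 40.5, 68.1, 141, 189 and 240.3 CPM and JAG2 at 41.5, 83.4, 139, 197 and 216 CPM, in an even climb. CRABP1 was at 31.7 CPM in cells without DCN and at 140.1 to 261 CPM in all the other classes. GATA3 ran the other way, at 408, 174, 111, 32.9 and 67.4 CPM. SHH changed most between the highest pair of classes, and GATA3 already differed between the classes inside the limit.

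GATA3 divided the cycling DCN-low cells themselves, a split also chosen after values had been seen. A GATA3 UMI was found in 671 cells (49.5%), with a median of 16123 UMIs, and in none of the other 685, with a median of 15191. The sheath keratins KRT71, KRT25 and KRT28 were at 1549, 1067 and 306 CPM in cells with GATA3 and at 182, 65.8 and 17.1 CPM in cells without. Endothelial cells carried 628, 248 and 57.3 CPM of these keratins, more than the cells without GATA3 and less than those with it. The shaft keratin KRT35 was at 1417 CPM (1395 to 1439) with GATA3 and 4894 CPM (4852 to 4936) without, and KRT85 at 1121 and 1966 CPM.

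Regulators followed the same division. HOXC13 was at 120.4 CPM (114 to 127) in cells with GATA3 and 459 CPM (446 to 472) in cells without, LEF1 at 103 and 226 CPM, LHX2 at 110.4 and 177 CPM, MSX1 at 329 and 486 CPM and BAMBI at 153 and 418 CPM. CUX1 was at 615 and 234 CPM, DSG1 at 249.7 and 93.9 CPM, TFAP2A at 260.2 and 159 CPM and ID3 at 3148 and 1932 CPM. HES1 was at 365 and 353 CPM. The cycle genes of the rule, by which the cells of both groups were chosen, are given as a description. TOP2A was at 571 CPM with GATA3 and 603 CPM without, CENPF at 728 and 773 CPM, MCM5 at 216 and 198 CPM and UHRF1 at 267 and 243 CPM. A cell without a UMI of GATA3 may still have expressed it, so the split is one of detection.

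**Figure D5:**
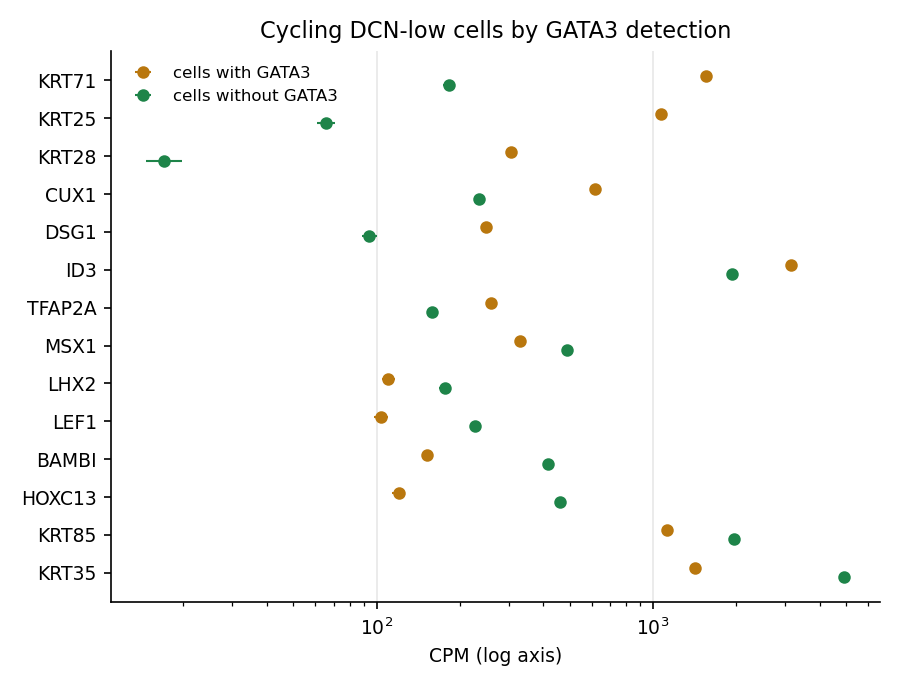
CPM (log axis) of 14 keratins and regulators in the 671 cycling DCN-low cells with a GATA3 UMI (brown) and the 685 without (green), with exact 95% Poisson intervals. KRT71, KRT25 and KRT28 lay to the right in cells with GATA3, and KRT35, HOXC13 and LEF1 in cells without, as for HOXC13 at 120.4 against 459 CPM.

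Phase differences within the cycling DCN-low cells were read from 110 S-leaning cells, which had MCM5 and UHRF1 but neither CENPF nor NUSAP1, and 190 G2/M-leaning cells, which had CENPF and NUSAP1 but not MCM5. Their median depths were 14049.5 and 16470.5 UMIs. Over 3627 genes 2.1% were at least 2-fold higher and 3.23% at least 2-fold lower in the S-leaning cells, with a median log2 ratio of -0.08. The split used rule genes of replication and mitosis, so the directions of these lists were partly set by that choice. Of the 19 replication genes past the filter, 17 were higher in S-leaning cells and none was lower, and the list median was 1.36. Of the 12 that reached 20 CPM in the G2/M-leaning cells alone, 10 were higher. Of 46 mitosis genes 37 were lower and none was higher, with a list median of -2.22. Genes such as ASPM, PRC1, KIF23 and HJURP passed the filter through the G2/M-leaning cells, so this count leans towards lower genes. Within the follicle factors and signalling genes no gene differed 2-fold among 16 and 22 past the filter, which is near the shares over all genes.

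The helicase subunit MCM3 was at 215 CPM in the S-leaning and 25.4 CPM in the G2/M-leaning cells, the chromatin remodeller HELLS at 149.6 and 25.03 CPM, and the mismatch repair gene MSH6 at 136 and 26.3 CPM. The clamp loader genes RFC4 and RFC3 were at 293 and 192 CPM against 119 and 83.4 CPM, DNMT1, the maintenance methyltransferase, at 151 against 68.0 CPM, NASP at 512 against 235 CPM and the checkpoint mediator CLSPN at 169.6 against 78.6 CPM. Low in S-leaning cells were ASPM, which focuses spindle poles, at 3.34 against 183 CPM, the midzone genes PRC1 and KIF23 at 4.68 and 6.68 CPM against 174 and 120.4 CPM, and HJURP, the centromeric histone chaperone, at 6.01 against 100.1 CPM. Cyclin B2 (CCNB2) was at 12.7 against 168 CPM, CENPE at 28.7 against 339 CPM, TPX2 at 42.7 against 427 CPM and BUB1B at 20.04 against 167 CPM. HBAI and KRT84 were among the 15 genes with the largest ratio as well, at 144 and 139 CPM against 19.6 and 38.5 CPM, with 84.7% and 79.8% of their UMIs in 1 cell. Of these 2 genes, no level can be assigned to the S-leaning cells as a group.

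The cycle part of the rule, applied to the other stages, found 1442 cells at E60 (21.1%, 20.1 to 22.0%), 602 at E90 (8.69%, 8.03 to 9.37%) and 1869 at E120. The whole rule kept 32, 79 and 1356 cells, and COL1A1 was 0 in only 39 of the E60 and 113 of the E90 cycling cells. At 2000 UMIs per cell the cycle part was met by 7.13%, 1.75% and 5.45% of cells, so the order of E60 and E120 differed from that without thinning and no order is read. Between cycling and cycle-negative cells of the same stage, the mitosis list was 11.1-fold higher at E60, 3.16-fold at E90 and 7.46-fold at E120, and the replication list 5.70-fold, 1.93-fold and 6.16-fold. Stage, dissociation and depth cannot be told apart in these values.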

How the data were processed

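The authors deposited 1 table of natural log values for 16739 genes and 20676 cells, with the stage at the start of each cell name per the labels. Cell Ranger 3.0.2 was used, per the submitters' processing notes. The genome build, the annotation and the filters on cells are not given in the sources used here. The values were the natural log of 1 plus counts per 10000, as the values themselves showed, and UMI counts were recovered by inversion. All nonzero values came out whole within a tolerance of 0.01 on the assumption that the smallest value of a cell is 1 UMI. Of the genes, 12709 carried a symbol. UMIs were summed over the cells of each group, scaled to CPM and compared as the log2 ratio of CPM + 1. Genes at a mean of at least 20 CPM over both groups were counted, and a 2-fold ratio was the mark. Poisson and binomial (Clopper-Pearson) intervals are exact, at 95%. With 1 library per stage no test was possible. The named genes were the 15 highest and 10 lowest by ratio among those with a symbol, no part in the rule and at least 100 CPM in the higher group. The 4 most abundant genes of each list were named too, and others are described by their lists or were picked after their values were seen. Some genes that the rule names are not reported here. The cells and the gene lists were chosen with earlier results of these data known. Of 446 listed symbols, 381 were in the table. No cell of these groups had fewer than the 2000 UMIs used for thinning. The script was checked on simulated data. Alternatives covered the pseudocount, the level filter, the weighting and thinning of cells, doublets, cell quality, depth and the limits of the rule. Promoter motifs were planned but not analysed here. Python 3.11.15, numpy 2.4.6, scipy 1.17.1, pandas 2.3.3, scikit-learn 1.9.0 and scikit-image 0.26.0 were used.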

Additional observations from a re-analysis of the deposited data

How the results depend on the processing

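No setting turned the direction of a named gene's ratio. Without the level filter more genes were lower than higher than in the cycle-negative cells, and with thinning the cycle share of E60 was above that of E120, both opposite to the order reported. The share of E120 cells kept by the rule, 19.7%, was 24.3% with 3 and 14.4% with 5 cycle genes required, 17.6% with DCN below 4 and 22.0% with DCN below 16 counts per 10000, 21.8% among cells of at least 1000 genes and at most 10% mitochondrial UMIs, 27.3% among cells of 10000 to 30000 UMIs, and 21.3% without cells that held 3 markers of another type, a setting chosen after seeing the data. Counts of genes past 2-fold followed the level filter. Without a filter they were 905 higher and 1127 lower than in the cycle-negative cells, 1017 and 952 against the limit-matched cells, 284 and 243 against the cycling DCN-high cells, and 559 and 831 between S-leaning and G2/M-leaning cells. At a mean of at least 100 CPM they were 124 and 62, 127 and 63, 25 and 18, and 12 and 37. With a pseudocount of 10 CPM, 36 genes were lower than in the cycling DCN-high cells and 47 were higher in S-leaning cells. With cells thinned to 2000 UMIs, 178 genes were higher and 392 lower in S-leaning cells. The median of detected genes per cell was 90 higher than in the cycle-negative cells at 2000 UMIs, 54 at 1000 UMIs and 837 without thinning. At 2000 UMIs per cell the cycle part of the rule was met by 7.13%, 1.75% and 5.45% of cells at E60, E90 and E120. Every other setting kept the counts within 1.5 times. All 25 named genes of each comparison with cells without cycle genes stayed past 2-fold in every setting. With DCN below 4, KRT85, LGALS3, FABP3.1 and HSPB8 were under 2-fold against the cycling DCN-high cells, at log2 ratios of 0.84, 0.76, 0.24 and 0.99, and with DCN below 16 MT3 and CRABP1 were at -0.97. With thinning, GMPS and KRT84 were under 2-fold between S-leaning and G2/M-leaning cells, and among cells of 10000 to 30000 UMIs HBAI and KRT84 were. VIM was under 2-fold against the cycling DCN-high cells among cells of 10000 to 30000 UMIs and without cells holding 3 markers of another type, and FN3KRP between S-leaning and G2/M-leaning cells at a pseudocount of 10 CPM. No paired analysis was possible because each stage was 1 library, and no replicate could be left out. Below 0.136 CPM, the value of 3 UMIs in the sum of the cycling DCN-low cells, a level cannot be told from 0.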

Other observations

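Genes picked out earlier as marks of other matrix cells of this library were read in the cycling DCN-low cells. ALDH1A3, a retinoic acid synthesizing enzyme, was at 149 CPM (144 to 154), against 329.9 CPM in the cycle-negative cells and 117 CPM in the cycling DCN-high cells. NPTX2 was at 146 CPM, against 185 and 281 CPM in those groups and 11.3 CPM in endothelial cells. CXCL14, a chemokine of follicle keratinocytes, was at 796 CPM (cycling cells with no DCN) and 2309 CPM (cycling cells with DCN of 16 counts per 10000 or more). Alpha globin HBAI was at 82.1 CPM in the cycling DCN-low cells and 246 CPM in the cycle-negative cells.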
